A study of Mus musculus with 12 samples.

Results

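The genes described here are 50 cell cycle and proliferation genes in macrophages of the mouse mammary duct, taken by symbol from a gene table of 27179 genes. They comprise 27 mitotic members, which act in chromosome condensation, the spindle, the kinetochore, cytokinesis or entry into and exit from mitosis. A further 19 are S-phase members, which act in the start of DNA replication, the replication fork or nucleotide supply. The remaining 4 are the D-type cyclins Ccnd1, Ccnd2 and Ccnd3 and their kinase Cdk4. All 50 had enough counts to be tested, among 12672 genes tested. Ductal macrophages were sorted from the mammary glands of female C57BL/6 mice that were virgin, 16.5 days pregnant, lactating, or 1 month past weaning, with 3 libraries labelled as biological replicates at each of the 4 stages. Each library was made from 2000 cells, and the library totals ran from 6926273 to 21204704 counts. The gate used for the sort, the age of the mice and the number of mice per library were not stated in the sources used here.

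Tissue macrophages can renew themselves by dividing in place, and in the mammary gland their number changes as the epithelium grows, makes milk and regresses. A dividing cell first commits to the cycle through D-type cyclins with Cdk4, then makes the replication proteins under E2F factors, and only later makes the mitotic proteins under the MuvB complex with B-Myb and Foxm1. The transcripts of the later wave are close to absent from resting cells, whereas several replication factors, such as Pcna, also serve DNA repair and are made outside the cycle.

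The CHR and E2F elements through which these factors act are short runs of letters near the start site, so the promoters of 4 members are shown: 2 mitotic members called in pregnancy, and an S-phase member called in lactation beside one of the same role that was not. The CHR, the cell cycle genes homology region bound by MuvB, was searched as TTTGAA, the E2F site as TTTGGCGC, TTTCCCGC, TTTGCCGC or TTTCGCGC, and the CCAAT box as CCAAT, each on both strands, in RefSeq promoters of GRCm38.p6 that run from 250 bases before to 50 after a start site. A promoter was given for 40 of the 50 members. The CHR letters were in 16 of 22 mitotic promoters (72.7%) and 2 of 16 S-phase promoters (12.5%), against 18.1% of 18458 genes. The E2F letters were in 1 of 22 mitotic promoters (4.55%) and 8 of 16 S-phase promoters (50%), against 3.23% of genes. CCAAT was in 19 of 22 (86.4%) and 11 of 16 (68.8%), against 42.2%. The stretches below run from 120 bases before the start site to 30 after it, on the gene's own strand, 5′ to 3′, with the letters of any of these motifs, on either strand, in capitals; Hmmr is at chr11:40733408-40733557, Ccnb2 at chr9:70421525-70421674, Cdc45 at chr16:18811943-18812092 and Mcm6 at chr1:128359676-128359825, all on the minus strand.
Hmmr: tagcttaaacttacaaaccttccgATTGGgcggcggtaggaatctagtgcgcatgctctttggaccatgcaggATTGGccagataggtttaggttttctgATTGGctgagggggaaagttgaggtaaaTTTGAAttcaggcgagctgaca
Ccnb2: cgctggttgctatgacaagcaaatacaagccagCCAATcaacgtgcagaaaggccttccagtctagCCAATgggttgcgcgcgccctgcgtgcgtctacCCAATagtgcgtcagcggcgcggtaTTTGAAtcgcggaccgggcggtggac
Cdc45: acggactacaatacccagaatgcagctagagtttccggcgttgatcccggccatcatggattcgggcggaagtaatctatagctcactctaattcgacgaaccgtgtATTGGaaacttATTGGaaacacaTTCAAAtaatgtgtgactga
Mcm6: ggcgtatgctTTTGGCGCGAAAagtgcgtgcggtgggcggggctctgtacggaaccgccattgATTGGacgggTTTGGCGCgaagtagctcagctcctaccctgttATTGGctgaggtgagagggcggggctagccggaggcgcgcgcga
Hmmr and Ccnb2, both mitotic, each held 3 CCAAT boxes followed by a CHR just after the start site. Cdc45, an S-phase member, held 2 CCAAT boxes and a CHR near the start site and none of the E2F letters in the window, and Mcm2 was the other S-phase member with a CHR. Mcm6 held 3 E2F matches, of which 2 overlapped on opposite strands. A match of letters is a description of these windows and does not show that a factor was bound.

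The library labelled Lactating replicate 3 stood apart from the others. It differed from the other lactating libraries by a chi-square of 307 and 338 per degree of freedom, against 31.9 to 88.3 for the other pairs of libraries of a stage. The summed level of 20 macrophage markers was 64873 CPM (read counts scaled to a common library size after TMM normalisation) in it, against 115873 to 228779 CPM in the other 11 libraries. The summed level of 13 milk and secretory epithelial markers was 67407 CPM there, against 2292 and 2192 CPM in Lactating replicates 1 and 2. The same milk list summed to 13574, 1623 and 2233 CPM in pregnant libraries, against 0.115, 9.43 and 86.6 CPM in virgin libraries, so it was higher in every pregnant library, in the same comparison as the mitotic levels given below. After weaning it summed to 1990.4, 755 and 465 CPM. The summed level of 14 luminal epithelial markers was 380, 275 and 268 CPM in pregnant libraries, against 184, 141 and 943 CPM in virgin libraries, which overlapped, although Epcam, named after its values were seen, was at 171 to 208 CPM in pregnant and 9.27 to 86.6 CPM in virgin libraries. The macrophage genes Adgre1, Csf1r and Cd68 were present throughout, at 263 to 981, 489 to 1669 and 570 to 1537 CPM. The neutrophil gene S100a8 was at 0 in all libraries but a pregnant one. The 8 neutrophil markers, of which 6 or 7 were at 0 in each library, still summed to 55.3 to 129 CPM. Other leukocyte lists had counts in every library. T and NK cell markers summed to 168 to 473 CPM, and B and plasma cell markers to 165 to 814 CPM. Dendritic cell markers summed to 71.5 to 248 CPM, and monocyte markers to 7.20 to 233 CPM. Of 9 endothelial markers, at least 5 were at 0 in each pregnant library, where the list summed to 0.704 to 2.45 CPM, against 9.19 to 62.2 CPM in virgin libraries. In the lactating and post-weaning libraries it summed to 3.99 to 268.5 CPM and 17.5 to 69.9 CPM, the highest being Lactating replicate 3. Fibroblast markers summed to 2.34 to 6.58 CPM in pregnant libraries, 4.16, 0 and 21.8 CPM in lactating libraries and 40.5 to 171 CPM in post-weaning libraries, against 25.7 to 384 CPM in virgin libraries. The part of other cell types in the member levels was not tested. In bulk RNA, fewer cycling cells and less RNA of these genes per cell cannot be told apart.

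Mitotic transcripts were highest in pregnancy. All 27 mitotic members had their highest stage mean there, as did 15 of 19 S-phase members, whereas the S-phase members Cdt1, Mcm5 and Gins2 and the cyclins Ccnd1 and Ccnd2 had theirs in lactation. The share of all genes with their highest mean in pregnancy was not computed. By a stricter count, 23 of the 50 members were higher in every pregnant library than in the other 9, against 3.35% of all genes. The mitotic members summed to 332, 228 and 425 CPM in virgin libraries, 1410.4, 1571 and 1162 CPM in pregnant libraries, 230.3, 236 and 792 CPM in lactating libraries, and 314, 506 and 370.3 CPM in post-weaning libraries. Each pregnant library was thus above each of the other 9, and the highest of these was Lactating replicate 3. The S-phase members summed to 343, 430.2 and 331 CPM in virgin libraries, 699, 676 and 655 CPM in pregnant libraries, 517, 383 and 588 CPM in lactating libraries, and 316, 292 and 274 CPM in post-weaning libraries. Their pregnant libraries too were above all the others, by a narrower margin.

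**Figure D1:**
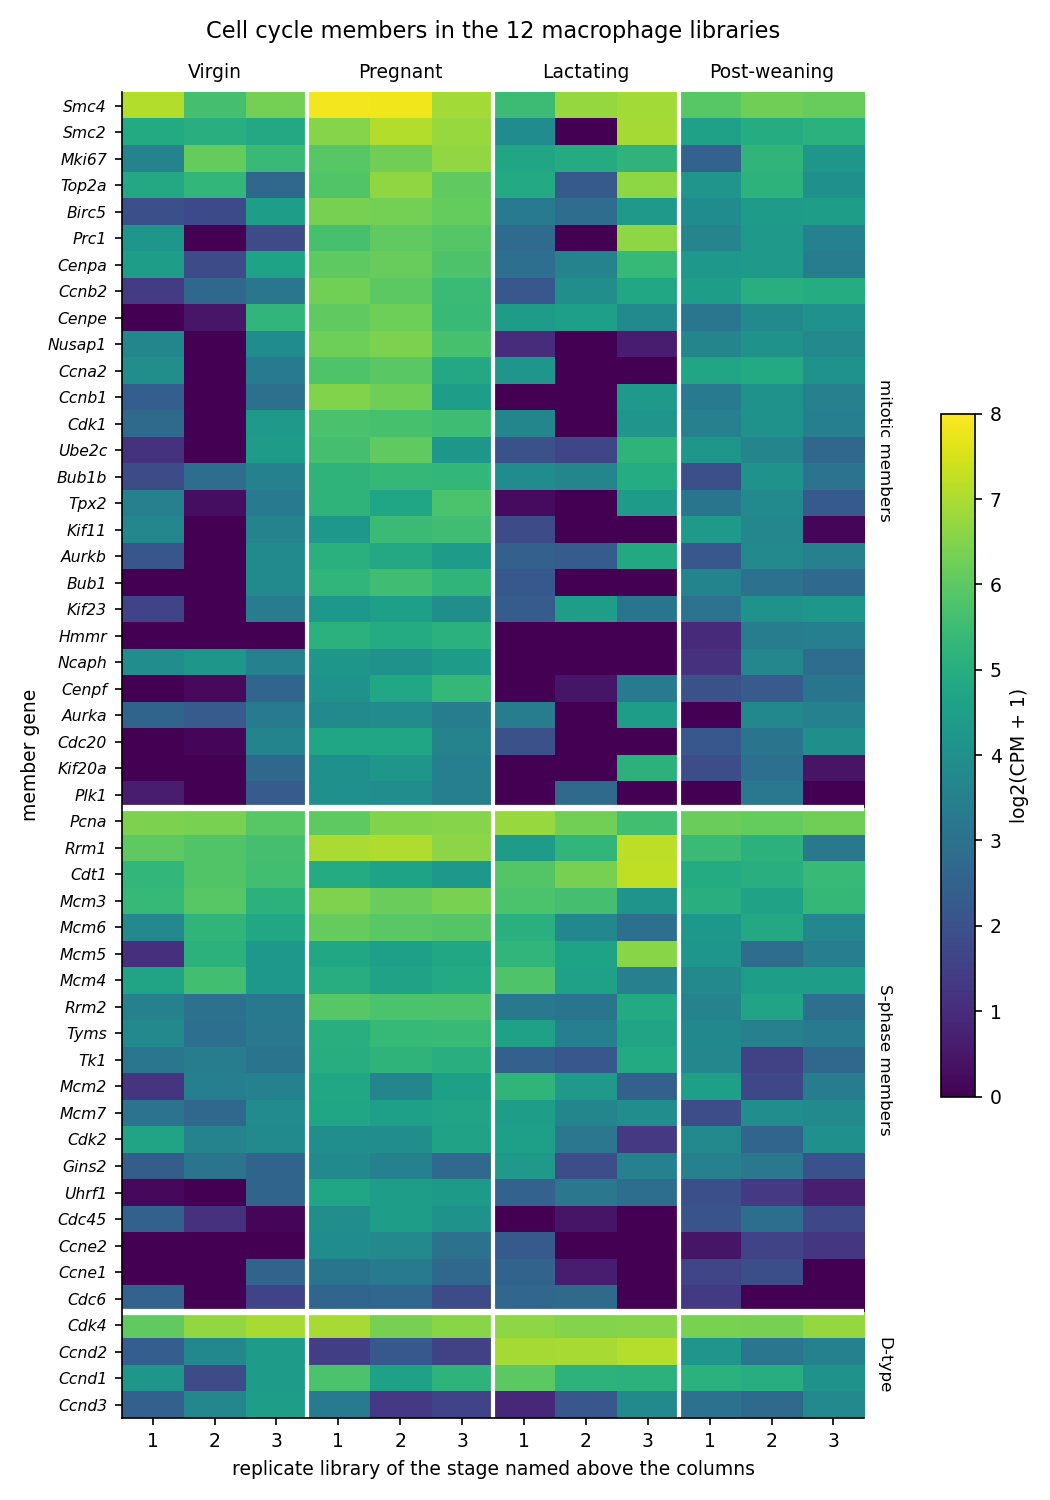
Level of each of the 50 members (rows, log2(CPM + 1)) in each of the 12 libraries (columns, 3 per stage), sorted within mitotic, S-phase and D-type members by mean level. The mitotic rows are bright in the 3 pregnant libraries and dark, with many libraries at 0, in Virgin replicate 2 and Lactating replicate 2, while Ccnd2 is bright in the lactating libraries.

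The mean summed level of the mitotic members in pregnancy was 1381 ± 206 CPM, against 328 ± 99.0 CPM in virgin libraries (SD, n = 3 each), a ratio of 4.21. For the S-phase members it was 677 ± 21.9 CPM in pregnancy, against 368 ± 54.1 CPM in virgin libraries, a ratio of 1.84. On the log2 scale the mitotic sum differed by 2.11, with a combined SD of 0.51, and the S-phase sum by 0.89, with a combined SD of 0.21. The log2 ratio of mitotic to S-phase levels was 1.02 ± 0.19 in pregnancy and -0.20 ± 0.65 in virgin libraries, and no pregnant library overlapped a virgin one. Per kilobase of gene length, the mitotic level was 1.61 ± 0.317 times the S-phase level in pregnancy and 0.610 ± 0.353 times in virgin libraries. The same ratio was 0.587 ± 0.447 in lactation and 0.964 ± 0.229 after weaning. Without the 5 mitotic members that are also made in S phase (Ccna2, Smc2, Smc4, Top2a and Mki67), the difference between mitotic and S-phase sums in pregnancy over virgin was 2.14 on the log2 scale, against 1.22 with them.

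**Figure D2:**
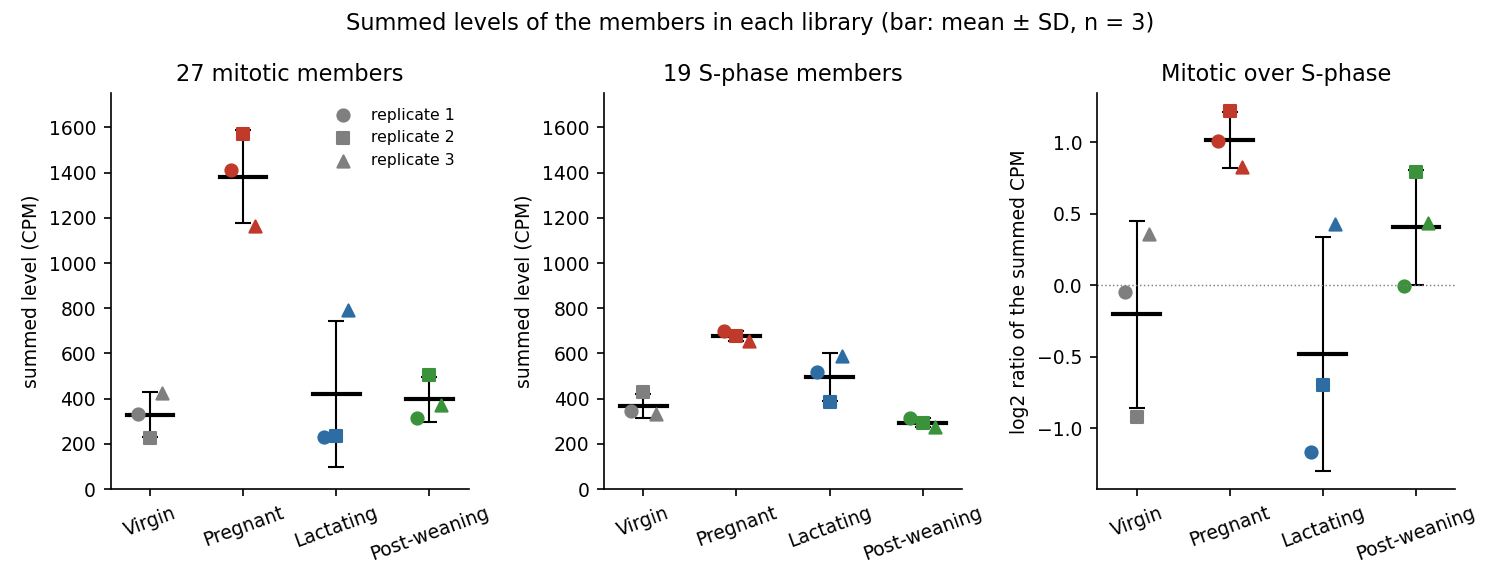
Summed level of the 27 mitotic members (left, CPM), of the 19 S-phase members (middle, CPM) and the log2 ratio of the mitotic sum to the S-phase sum (right) in each library, by stage. Points are libraries, and the bar and whiskers are the mean ± SD of 3 libraries; the pregnant libraries lie at 1162 to 1571 CPM for the mitotic members, and Lactating replicate 3, at 792 CPM, lies far above the other lactating libraries.

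No mitotic member was at 0 in any pregnant library, whereas 6, 13 and 1 of the 27 were at 0 in the virgin libraries, 6, 14 and 7 in lactation, and 2, 0 and 1 after weaning. Detection of all genes also differed, with 13409, 13329 and 13790 genes above 0 in pregnant and 12421, 11295 and 13207 in virgin libraries. Lactating libraries had 11462, 11412 and 10178 genes above 0, and post-weaning libraries 13476, 12984 and 13015. The part of this in the members at 0 was not tested. A level of 3 counts, the limit that a count of 0 allows, was 0.124 to 0.547 CPM. The mitotic members also varied least between replicates in pregnancy, with a median coefficient of variation of 25.2%, against 93.4% in virgin, 113% in lactating and 48.4% in post-weaning libraries. For S-phase members that median was 15.9% in pregnancy, against 46.6% in virgin, 79.3% in lactating and 54.1% in post-weaning libraries. No such median was computed for all genes. Levels differed too, with a median stage mean of mitotic members of 43.6 CPM in pregnancy. It was 6.73 CPM in virgin, 10.8 CPM in lactating and 11.7 CPM in post-weaning libraries. The part of level in this spread was not tested.

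The first comparison asks what differed on day 16.5 of pregnancy relative to the virgin gland. Of the 50 members, 2 rose past the test (edgeR's quasi-likelihood test, Benjamini-Hochberg adjusted p under 0.05 over all genes tested), both mitotic, and none fell; 0.442% of all genes were called higher and 0.876% lower. At an unadjusted p under 0.05, 17 members were higher and 2 lower, against 5.88% and 6.33% of all genes. The libraries of 35 members did not overlap and were higher in pregnancy, against 13.6% of all genes, and those of 2 members, Cdt1 and Ccnd2, were lower, against 10.7% of all genes. By role, the higher members were 22 of 27 mitotic (81.5%), 12 of 19 S-phase (63.2%) and 1 of 4 D-type members. The median log2 fold change was 2.58 for mitotic and 1.30 for S-phase members, against 0.03 for all genes tested. No p-value was computed for the difference between mitotic and S-phase members. This comparison and the 2 others that involve pregnancy share the pregnant libraries.

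Hmmr, which encodes a hyaluronan receptor that binds spindle microtubules, rose in pregnancy (chr11:40701388-40733464, GRCm38.p6). It had 0 CPM in every virgin library, 33.8, 29.0 and 33.5 CPM in pregnant libraries, 0 CPM in every lactating library, and 0.916, 9.59 and 9.94 CPM in post-weaning libraries. It was not detected in virgin or lactating libraries, the pregnant libraries lay close together, and the post-weaning libraries lay between them. In pooled counts Hmmr was at least 381-fold higher in pregnant than in virgin libraries (adjusted p = 0.0201, edgeR), with a stage at 0 taken as 3 counts. The call was lost when Virgin replicate 2 or 3 or any of the pregnant libraries was left out, at adjusted p = 0.0605 to 0.0975.

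Ccnb2, cyclin B2, which activates Cdk1 for entry into mitosis, was the other called member (chr9:70407689-70421554). It had 1.61, 5.55 and 7.89 CPM in virgin, 77.1, 61.7 and 43.1 CPM in pregnant, 3.47, 14.4 and 26.7 CPM in lactating, and 21.4, 31.0 and 29.8 CPM in post-weaning libraries. Pregnant libraries were the highest, above all the others, and post-weaning libraries stayed above virgin ones. The log2 fold change of pregnant over virgin was 3.58 ± 0.74 (SE, adjusted p = 0.0404, edgeR). Among the fits that left out 1 library, the call held only without Lactating replicate 1 or 3. Leaving out any of the other 10 libraries gave adjusted p = 0.0582 to 0.154 (edgeR). With all libraries of both stages kept, the call also held in the 8 other alternatives, among them DESeq2 and limma-voom. A pseudogene, Ccnb2-ps, could share reads with it.

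The other B-type cyclin and its kinase did not pass the test. Ccnb1, cyclin B1, had 4.25, 0 and 6.80 CPM in virgin, 89.1, 75.3 and 21.2 CPM in pregnant, 0, 0 and 18.6 CPM in lactating, and 8.88, 16.01 and 10.2 CPM in post-weaning libraries. Cdk1, the mitotic kinase, had 5.74, 0 and 18.6 CPM in virgin, 51.3, 49.8 and 45.1 CPM in pregnant, 11.6, 0 and 17.2 CPM in lactating, and 10.1, 15.9 and 10.03 CPM in post-weaning libraries. For both genes each pregnant library was above each of the other 9, and the log2 fold changes of pregnant over virgin were 4.06 ± 1.83 for Ccnb1 and 2.58 ± 1.50 for Cdk1 (adjusted p = 0.402 for Ccnb1 and 0.574 for Cdk1, edgeR). Birc5, survivin, which holds the chromosomal passenger complex at the centromere, had 2.87, 2.46 and 21.2 CPM in virgin, 81.7, 80.1 and 68.2 CPM in pregnant, 8.84, 6.21 and 18.8 CPM in lactating, and 13.7, 20.4 and 20.9 CPM in post-weaning libraries. Its pregnant libraries also lay apart from all others, with a log2 fold change over virgin of 3.11 ± 0.78 (adjusted p = 0.0935, edgeR).

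Mki67 and Top2a, the usual markers of cycling cells, were not called in any comparison by the edgeR fit to all 12 libraries. Mki67, which coats mitotic chromosomes, had 11.02, 68.7 and 41.8 CPM in virgin, 59.9, 76.5 and 103 CPM in pregnant, 25.6, 29.1 and 35.8 CPM in lactating, and 4.67, 36.7 and 17.7 CPM in post-weaning libraries. Virgin and pregnant libraries overlapped, and the log2 fold change of pregnant over virgin was 0.98 ± 0.69 (adjusted p = 0.702, edgeR). Top2a, which untangles sister DNA, had 27.4, 38.6 and 5.48 CPM in virgin, 56.3, 102 and 65.0 CPM in pregnant, 28.9, 3.84 and 99.1 CPM in lactating, and 16.9, 34.8 and 15.3 CPM in post-weaning libraries. Every pregnant library was above every virgin and post-weaning one, and among lactating libraries replicate 3 reached the pregnant range.

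The condensin ATPases Smc4 and Smc2, which compact chromosomes, were the most abundant mitotic members in CPM. Smc4 had 135, 48.5 and 78.7 CPM in virgin, 232, 227 and 119 CPM in pregnant, 43.7, 104 and 117 CPM in lactating, and 60.1, 76.6 and 69.1 CPM in post-weaning libraries. Smc2 had 28.3, 32.2 and 27.4 CPM in virgin, 92.2, 135 and 107 CPM in pregnant, 13.9, 0 and 119 CPM in lactating, and 22.7, 30.3 and 33.6 CPM in post-weaning libraries. Smc4 overlapped between pregnant and virgin libraries and Smc2 did not, and neither was called in any comparison by the edgeR fit to all 12 libraries. The other 16 mitotic members averaged 1.48 (Plk1) to 15.9 (Cenpa) CPM in virgin, 12.1 (Aurka) to 62.3 (Cenpa) CPM in pregnant, 0.866 (Kif11) to 35.1 (Prc1) CPM in lactating and 2.72 (Plk1) to 23.4 (Ccna2) CPM in post-weaning libraries. They include the mitotic kinases Plk1, Aurka, Aurkb, Bub1 and Bub1b, the kinetochore proteins Cenpa, Cenpe and Cenpf, and the kinesins Kif11, Kif20a and Kif23. None of the 16 was called in any comparison by the edgeR fit to all 12 libraries, whereas other fits called some of them, such as Bub1b and Kif11 by DESeq2 and Bub1 by limma-voom.

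Among S-phase members, 12 of 19 did not overlap between pregnant and virgin libraries on the higher side and 6 overlapped. Pcna, the sliding clamp of the replication fork, had 85.5, 83.3 and 59.8 CPM in virgin, 63.9, 88.6 and 93.3 CPM in pregnant, 109, 77.5 and 46.6 CPM in lactating, and 71.2, 67.3 and 75.8 CPM in post-weaning libraries. All 4 stages overlapped, and the log2 fold change of pregnant over virgin was 0.11 ± 0.30. Per kilobase it was, at 61.0 CPM over the 12 libraries, the highest of the S-phase members.

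Among the replicative helicase subunits, Mcm3 had 40.2, 59.3 and 34.1 CPM in virgin, 87.0, 70.4 and 82.5 CPM in pregnant, 52.0, 49.3 and 16.5 CPM in lactating, and 31.3, 23.7 and 39.1 CPM in post-weaning libraries. Mcm6 had 12.5, 36.7 and 26.6 CPM in virgin, 68.6, 60.6 and 57.1 CPM in pregnant, 32.7, 12.4 and 6.67 CPM in lactating, and 18.4, 27.1 and 12.1 CPM in post-weaning libraries. Both were higher in each pregnant library than in any of the other 9, as was Mcm7, whereas Mcm2, Mcm4 and Mcm5 overlapped with other stages. None of the 6 Mcm genes was called in any comparison by the edgeR fit to all 12 libraries, whereas DESeq2 and limma-voom each called Mcm6 lower in lactation than in pregnancy.

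Among enzymes of nucleotide synthesis, Rrm1, the large subunit of ribonucleotide reductase, had 63.2, 56.0 and 48.8 CPM in virgin, 126, 131 and 96.2 CPM in pregnant, 20.1, 37.6 and 146 CPM in lactating, and 42.4, 34.5 and 8.12 CPM in post-weaning libraries. Its highest value was that of Lactating replicate 3. The small subunit Rrm2 averaged 54.6 ± 3.84 CPM in pregnant and 8.67 ± 1.74 CPM in virgin libraries, a log2 fold change of 2.65 ± 0.62 (adjusted p = 0.0681, edgeR). Tyms, which makes thymidylate, averaged 37.5 ± 5.08 CPM in pregnant and 9.13 ± 3.13 CPM in virgin libraries (adjusted p = 0.0652, edgeR). Rrm2, Tyms and the thymidine kinase Tk1 were each higher in all pregnant libraries than in all of the other 9.

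The E-type cyclins, which start S phase with Cdk2, had the lowest levels per kilobase of the S-phase members after Cdc6, at 1.57 CPM for Ccne1 and 1.07 CPM for Ccne2, against 0.574 CPM for Cdc6. Ccne1 had 0, 0 and 4.82 CPM in virgin, 7.56, 8.60 and 5.51 CPM in pregnant, 4.85, 0.548 and 0 CPM in lactating, and 2.20, 2.75 and 0 CPM in post-weaning libraries. Ccne2 had 0 CPM in every virgin library, 13.8, 12.7 and 7.08 CPM in pregnant, 3.81, 0 and 0 CPM in lactating, and 0.366, 2.14 and 1.38 CPM in post-weaning libraries. Both were higher in every pregnant library than in any other, and Ccne2 was at least 113-fold higher in pregnant than in virgin libraries in pooled counts, without passing the test (adjusted p = 0.159, edgeR). Ccne2 overlaps Ints8 over 5622 bases, so reads of the 2 genes may be mixed there. The other 11 S-phase members averaged 1.70 (Uhrf1) to 29.8 (Mcm4) CPM in virgin, 4.35 (Cdc6) to 54.6 (Rrm2) CPM in pregnant, 3.68 (Cdc6) to 51.8 (Mcm5) CPM in lactating and 0.519 (Cdc6) to 18.4 (Mcm4) CPM in post-weaning libraries.

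**Figure D3:**
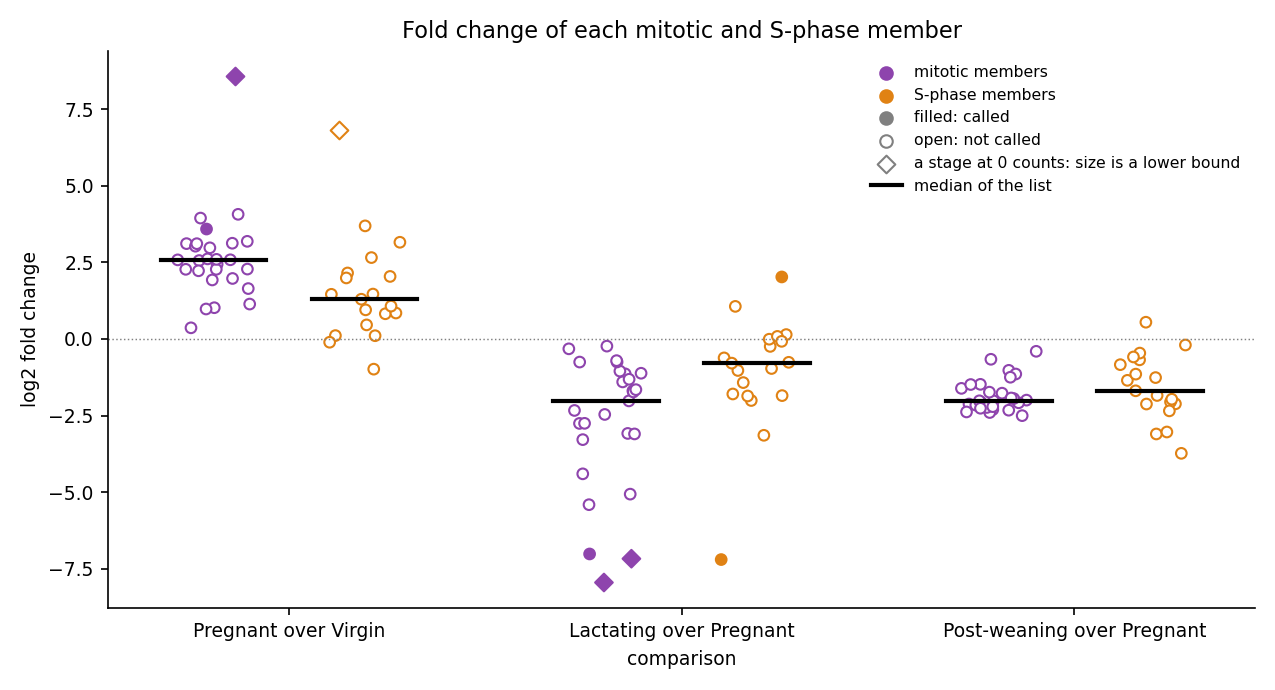
Log2 fold change of each mitotic and S-phase member in the 3 comparisons that involve pregnancy, which share the pregnant libraries. Filled points passed the test, diamonds have a stage at 0 counts and are drawn at their lower bound, and the bar is the median of the list; all mitotic members lie above 0 in Pregnant over Virgin and below 0 in the other comparisons, while S-phase members lie on both sides.

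In lactation relative to pregnancy, 6 members were called. Of these, 4 fell (Hmmr, Ncaph, Nusap1 and the S-phase member Cdc45) and 2 rose (Ccnd2 and the S-phase member Cdt1); 1.2% of all genes were called lower and 2.65% higher. The libraries of 29 members did not overlap and were lower in lactation, 19 mitotic and 10 S-phase, against 17.1% of all genes, and those of 2 members were higher, against 9.5% of all genes. The median log2 fold change was -2.02 for mitotic and -0.79 for S-phase members, against -0.14 for all genes tested. The mitotic sum was 0.304 times and the S-phase sum 0.733 times that of pregnancy.

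The counts without Lactating replicate 3 were larger. In that library 17 of 27 mitotic members were above both other lactating libraries, 7 reached at least the lowest pregnant library, and Aurka, Kif20a and Prc1 were above the highest. The shares of all genes that did so were not computed, so these counts describe the members only. Prc1 overlaps Rccd1 over 21669 bases and Kif20a overlaps Cdc23 over 4930 bases, so reads of these genes may be mixed there. Smc2, Smc4, Prc1 and Top2a made up 54.9% of the mitotic sum of Lactating replicate 3. In the same library Bub1, Ccna2, Cdc20, Hmmr, Kif11, Ncaph and Plk1 were at 0. The milk and macrophage markers of that library were given above, and their part in these values was not tested. Without that library, 26 of 27 mitotic and 11 of 19 S-phase members were lower in both remaining lactating libraries than in every pregnant one, against 24.2% of all genes. The fit without it called 10 members lower and 2 higher in lactation than in pregnancy, against 1.82% and 3.31% of all genes; the lower ones were Hmmr, Ncaph, Nusap1, Birc5, Ccnb1, Ccnb2, Rrm2, Smc2, Tk1 and Tpx2. The same fit called 6 members higher and 1 lower in pregnancy than in virgin libraries, against 1.18% and 2.09% of all genes. The higher ones were Hmmr, Ccnb2, Birc5, Ccne2, Rrm2 and Tyms, and the lower one was Ccnd2.

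Ncaph, a subunit of condensin I, was not detected in lactation (chr2:127103809-127133954). It had 14.2, 17.7 and 10.5 CPM in virgin, 17.7, 16.3 and 20.6 CPM in pregnant, 0 CPM in every lactating, and 1.19, 12.04 and 6.31 CPM in post-weaning libraries. Virgin and pregnant libraries overlapped, and it was the only member lower in every lactating library than in the other 9, against 3.16% of all genes. In pooled counts it was at least 144-fold lower in lactating than in pregnant libraries (adjusted p = 0.00426, edgeR) and at least 106-fold lower than in virgin libraries (adjusted p = 0.00857, edgeR). Both calls held whichever library was left out, at adjusted p up to 0.0194 and 0.0285. Smc4, the ATPase partner of Smc2 in the same complex, had counts in every lactating library, and Smc2 in 2 of 3.

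Nusap1, which bundles spindle microtubules, had 11.7, 0 and 13.9 CPM in virgin, 73.9, 84.3 and 50.2 CPM in pregnant, 1.04, 0 and 0.527 CPM in lactating, and 11.5, 15.9 and 12.5 CPM in post-weaning libraries (chr2:119618298-119650165). Its lactating libraries were near 0 and its pregnant libraries above all others. The log2 fold change of lactating over pregnant was -7.01 ± 1.54 (adjusted p = 0.0266, edgeR), and the call was lost without Lactating replicate 2 or any of the pregnant libraries, at adjusted p = 0.0645 to 0.0927. Hmmr, at 0 in lactation as given above, was at least 246-fold lower there than in pregnancy (adjusted p = 0.0110, edgeR), with adjusted p = 0.0505 without Pregnant replicate 2.

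Cdc45, which joins the Mcm proteins in the active helicase, had 4.59, 1.19 and 0.0731 CPM in virgin, 14.5, 21.3 and 16.2 CPM in pregnant, 0, 0.365 and 0 CPM in lactating, and 3.21, 6.43 and 2.33 CPM in post-weaning libraries (chr16:18780447-18811972). Every pregnant library was above the other 9, and the lactating libraries were at or near 0. The log2 fold change of lactating over pregnant was -7.20 ± 1.80 (adjusted p = 0.0498, edgeR). The call held without Virgin replicate 1 or 3 or Lactating replicate 2, and leaving out any other library gave adjusted p = 0.0550 to 0.168.

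Cdt1, which loads the Mcm helicase before S phase and is destroyed once replication starts, was higher in lactation (chr8:122568015-122573130). It had 38.0, 56.0 and 46.8 CPM in virgin, 29.1, 24.0 and 18.1 CPM in pregnant, 57.4, 81.5 and 149.7 CPM in lactating, and 29.6, 32.3 and 41.8 CPM in post-weaning libraries. Each pregnant library was below and each lactating library above all those of the other stages; of the 50 members, this held for Cdt1 and Ccnd2 alone, against 2.53% of all genes for pregnancy and 3.32% for lactation. The log2 fold change of lactating over pregnant was 2.02 ± 0.38 (adjusted p = 0.0119, edgeR), and the call was lost without Pregnant replicate 2 or 3, at adjusted p = 0.0643 and 0.0590. In the opposite direction, 23 members were higher in every pregnant library than in the other 9, 13 mitotic and 10 S-phase, against 3.35% of all genes.

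Ccnd2, cyclin D2, which activates Cdk4 and Cdk6 on signals from growth factors, had the smallest adjusted p of the 50 members in the test of any difference between stages (chr6:127125162-127152188). It had 4.25, 12.4 and 19.8 CPM in virgin, 1.78, 3.56 and 1.99 CPM in pregnant, 121, 123 and 136 CPM in lactating, and 17.1, 7.75 and 10.4 CPM in post-weaning libraries. The lactating libraries were all far above the rest, Lactating replicate 3 among them, and the pregnant libraries were all below the rest. Its log2 fold change was 5.70 ± 0.62 in lactating over pregnant (adjusted p = 0.000572, edgeR) and 3.37 ± 0.55 in lactating over virgin (adjusted p = 0.0112, edgeR). Both calls held whichever library was left out, at adjusted p up to 0.00592 and 0.0448. Ccnd2 overlaps a long noncoding gene, 9330179D12Rik, over 2800 bases, and without a known strand setting their reads there cannot be told apart.

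The other D-type members did not share this pattern. Ccnd1 had 17.8, 2.61 and 20.2 CPM in virgin, 52.0, 23.1 and 35.7 CPM in pregnant, 62.0, 35.1 and 34.6 CPM in lactating, and 33.4, 30.6 and 16.2 CPM in post-weaning libraries. Ccnd3 had 4.48, 12.1 and 20.9 CPM in virgin, 8.56, 1.49 and 2.03 CPM in pregnant, 0.866, 3.47 and 12.9 CPM in lactating, and 6.96, 5.81 and 12.5 CPM in post-weaning libraries. Neither was called in any comparison by edgeR, though Ccnd1 was higher in every pregnant and lactating library than in any virgin one. Cdk4, their kinase, had 65.1, 103 and 123 CPM in virgin, 122, 81.8 and 94.3 CPM in pregnant, 97.7, 91.4 and 92.0 CPM in lactating, and 82.9, 80.5 and 105 CPM in post-weaning libraries, overlapping throughout. Its log2 fold change of pregnant over virgin was 0.03 ± 0.26, and it was the member of highest level per kilobase, at 70.4 CPM.

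**Figure D4:**
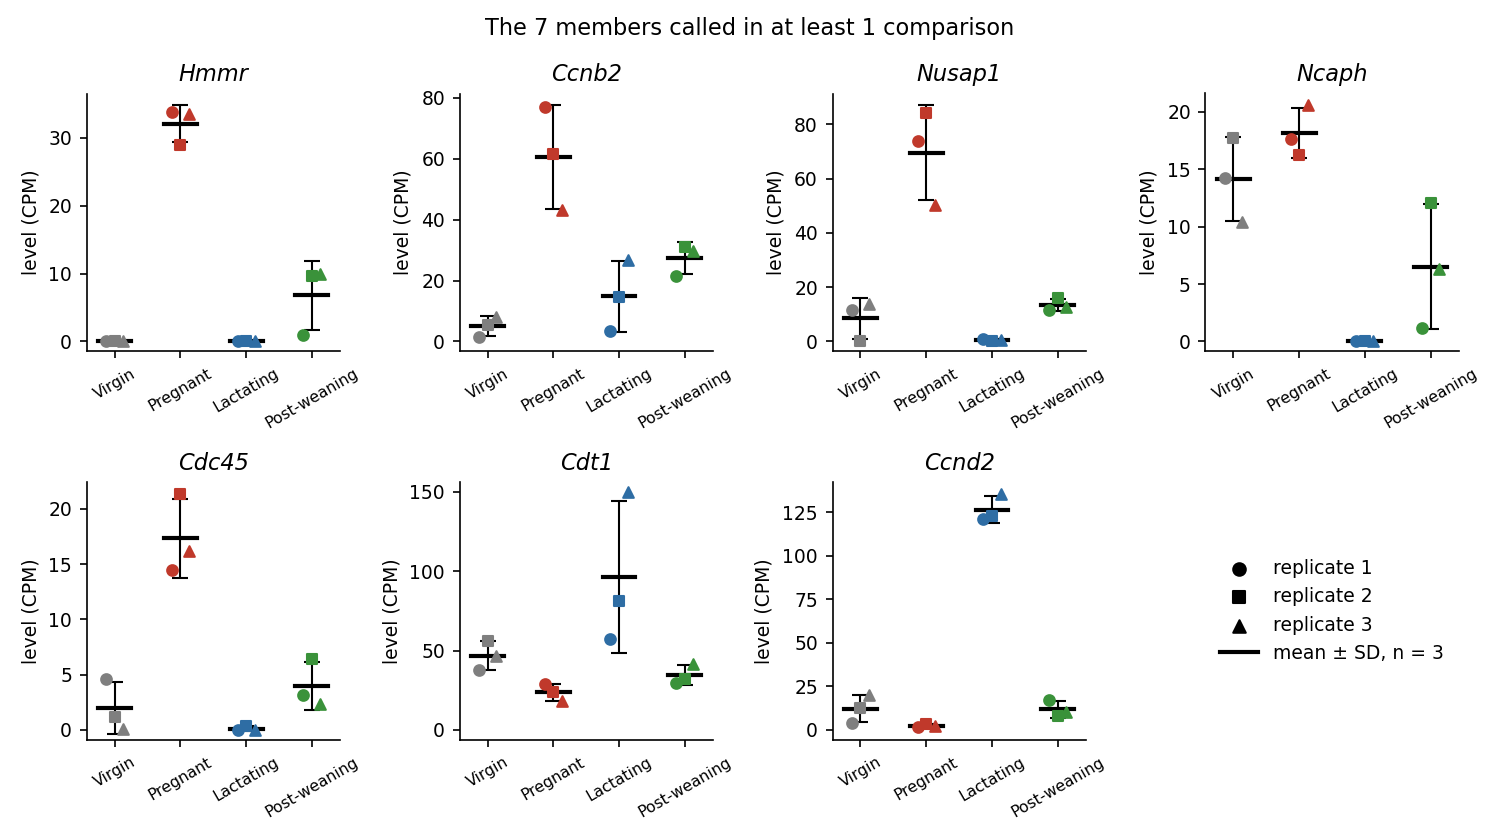
Level (CPM, linear axis) of the 7 members called in at least 1 comparison, by stage, with each library as a point and the mean ± SD of 3 libraries as a bar with whiskers. Hmmr, Ccnb2, Nusap1 and Cdc45 peak in the pregnant libraries, Ncaph is at 0 in the lactating libraries, and Cdt1 and Ccnd2 are highest in lactation and lowest in pregnancy.

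In lactation relative to the virgin gland, Ccnd2 rose and Ncaph fell, as given above, 1 member each way, against 1.04% and 0.9% of all genes. The libraries of 4 members did not overlap and were higher, against 8% of all genes, and those of 1 were lower, against 9.34%. The median log2 fold change was 0.37 for mitotic and 0.71 for S-phase members, against -0.06 for all genes tested.

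After weaning, the members were mostly lower than in pregnancy without passing the test. In post-weaning over pregnant libraries 0 members were called by edgeR, against 0.576% of all genes higher and 0.142% lower. At an unadjusted p under 0.05, 12 members were lower and 1 higher, against 4.28% and 5.96% of all genes. DESeq2 called 2 lower (Smc4 and Tyms) and 1 higher (Ccnd2), against 1.09% and 2.87% of all genes, and limma-voom called 2 lower (Birc5 and Rrm2), against 0.458% of all genes. Yet the libraries of 35 members, 21 mitotic and 14 S-phase, were all lower after weaning than in pregnancy, against 13.3% of all genes, and those of 2, Cdt1 and Ccnd2, were all higher, against 14%. The mitotic sum was 0.287 times and the S-phase sum 0.434 times that of pregnancy, and the median log2 fold changes were -2.02 and -1.69, against 0.01 for all genes. A fit to the 6 libraries of these stages alone called 18 members, all lower, against 1.74% of all genes in that direction, and the fit of all stages without Lactating replicate 3 called Mcm3 and Rrm2 lower, against 0.603% of all genes lower and 1.69% higher. The 18 were 13 mitotic and 5 S-phase members, among them Top2a, Smc2, Smc4, Mcm3 and Mcm6.

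Between post-weaning and virgin libraries 0 members were called by edgeR, with 3 higher at an unadjusted p under 0.05 (3.72% of all genes), 1 called by DESeq2 (Hmmr, higher, against 0.726% of all genes) and 0 by limma-voom; 0% of all genes were called in either direction. The libraries of 5 members did not overlap and were higher after weaning, against 8.83% of all genes, and those of 1, Rrm1, were lower, against 6.55%. Between post-weaning and lactating libraries Ncaph rose, at least 47.7-fold in pooled counts (adjusted p = 0.0227, edgeR), and Ccnd2 fell by 3.43 ± 0.55 on the log2 scale (adjusted p = 0.0174, edgeR), against 0.458% of all genes higher and 0.466% lower. The Ncaph call was lost without Pregnant replicate 1 or 2 or Post-weaning replicate 2 or 3, at adjusted p = 0.0525 to 0.0811, and the Ccnd2 call without Post-weaning replicate 2 or 3, at 0.111 and 0.0989. The libraries of 6 members were higher and of 5 lower, against 12.8% and 8.76% of all genes. Hmmr was close to the threshold, at adjusted p = 0.0535 (edgeR).

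In the test of any difference between the 4 stages, 4 members passed, against 3.35% of all genes. These were Ccnd2 (adjusted p = 0.00129), Hmmr (0.0116), Ncaph (0.0167) and Cdt1 (0.0334), all by edgeR's quasi-likelihood F test.

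Other genes of the cycle were read from lists by function, against the shares of all genes called by edgeR, which were 0.442% higher and 0.876% lower in pregnant over virgin libraries, and 2.65% higher and 1.2% lower in lactating over pregnant libraries. Of 39 other DNA replication genes, 1 rose in pregnancy over virgin (Rfc5, a clamp loader subunit, 43.6 ± 2.69 CPM in pregnant and 6.97 ± 1.51 CPM in virgin libraries, adjusted p = 0.0160, edgeR) and 1 fell in lactation over pregnancy (Gmnn, geminin, the inhibitor of Cdt1, 1.07 ± 0.926 CPM in lactating and 22.4 ± 5.02 CPM in pregnant libraries, adjusted p = 0.0462, edgeR). Of 49 other mitosis genes tested, Spc24 of the kinetochore rose in pregnancy (20.5 ± 10.5 CPM in pregnant and 0.0383 ± 0.0663 CPM in virgin libraries, adjusted p = 0.0486, edgeR), and the kinesin Kif2c was at 0 in lactation, at least 134-fold lower than in pregnancy (adjusted p = 0.0385, edgeR). The median log2 fold change of pregnant over virgin was 2.21 for the other mitosis genes and 0.84 for the other replication genes. Of 23 E2F, DREAM and FOXM1 regulators, none was called in any comparison by edgeR, with 0 to 4 at an unadjusted p under 0.05 in each comparison. At that unadjusted p, 6.04% to 18.6% of all genes passed, depending on the comparison. Foxm1 had 12.3, 6.54 and 10.4 CPM in pregnant libraries, against 0, 4.52 and 0 CPM in virgin libraries (adjusted p = 0.805, edgeR), E2f1 overlapped at all stages, and Mybl2 was under 5 CPM in every library.

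Several inhibitors of the cycle were lower in pregnancy. Of 19 tested CDK inhibitors and antiproliferative genes, 5 fell in pregnancy over virgin (Cdkn1a, Btg2, Tob2, Gadd45b and Gadd45g) and none rose, against 0.876% of all genes lower and 0.442% higher. Cdkn1a, the inhibitor p21, had 169, 99.1 and 121 CPM in pregnant libraries, against 353, 535 and 584 CPM in virgin libraries, a log2 fold change of -1.92 ± 0.26 (adjusted p = 0.00702, edgeR). Btg2, an antiproliferative gene induced by p53, had 214, 137 and 161 CPM in pregnant libraries, against 656, 719 and 849 CPM in virgin libraries, a log2 fold change of -2.12 ± 0.23 (adjusted p = 0.00507, edgeR). For both genes every pregnant library was below every virgin one. Of the list, 7 genes were lower in pregnancy with no overlap of the libraries and 2 were higher, against 10.7% and 13.6% of all genes. Cdkn2c was among the higher ones, at 6.54 ± 2.41 CPM in pregnant and 2.14 ± 0.821 CPM in virgin libraries (adjusted p = 0.680, edgeR).

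In lactation over pregnancy 4 genes of that list rose (Cdkn1a, Btg2, Gadd45b and Gadd45g) and Cdkn2c, the Cdk4 inhibitor p18, fell to 0 in all lactating libraries (against 2.65% of all genes higher and 1.2% lower), where pregnant libraries had 7.45, 8.37 and 3.81 CPM (lower by at least 41.8-fold, adjusted p = 0.0140, edgeR). Cdkn1a reached 593 ± 117 CPM in lactating libraries, against 129.8 ± 35.7 CPM in pregnant libraries (adjusted p = 0.000991, edgeR). Cdkn2c was also lower in lactating than in virgin libraries, as was Ccng2 (against 0.9% of all genes lower). Cdkn2c was higher in post-weaning than in lactating libraries (against 0.458% of all genes higher). In post-weaning over pregnant libraries Cdkn1a, Btg2 and Gadd45b rose (against 0.576% of all genes higher), with log2 fold changes of 1.65 ± 0.26, 1.57 ± 0.23 and 1.68 ± 0.23 (adjusted p = 0.0184, 0.0156 and 0.0122, edgeR). Cdkn1b, the inhibitor p27, averaged 7.04 to 10.5 CPM at the 4 stages and was not called.

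Of 8 regulators of macrophage self-renewal, Myc was the only one called, higher in lactating and in post-weaning than in pregnant libraries. The shares of all genes called higher in these comparisons were 2.65% and 0.576%. It averaged 78.5 ± 15.6 CPM in lactating, 106 ± 5.68 CPM in post-weaning and 34.1 ± 9.42 CPM in pregnant libraries (adjusted p = 0.0328 and 0.0231, edgeR). Maf, a transcription factor that restrains macrophage division, had 9.90, 17.2 and 12.3 CPM in pregnant libraries, against 55.4, 61.6 and 25.1 CPM in virgin libraries, with no overlap, but did not pass the test (adjusted p = 0.184, edgeR). Across these lists, the test of any difference between stages called Rfc5, the mitosis gene Esco2, Cdkn1a, Btg2, Gadd45b, Gadd45g, Ccng2 and Myc. Their adjusted p was 0.00166 to 0.0462 (edgeR), and 3.35% of all genes passed.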

How the data were processed

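Whole-number read counts per gene were deposited by the authors for 12 libraries; per the submitters' processing notes they came from featureCounts on mm10, whose version, strand setting and treatment of overlapping genes were not stated in the sources used here, nor was the aligner. Per the labels' protocols, the SMART-Seq v4 kit was used for cDNA, which adds no molecular identifiers, and sequenced in 1 run, so bounds against a stage at 0 counts cover counting error only. Reads of overlapping genes (15 members overlap another counted protein-coding gene) and of pseudogenes (6 members have a named one) are uncertain. Symbols, coordinates (1-based) and promoters are RefSeq's for GRCm38.p6, the assembly behind mm10; 25275 genes (93%) matched.

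Genes were filtered with filterByExpr by stage, scaled by TMM, and fitted in edgeR 4.0.16 (R 4.3.3) with robust quasi-likelihood and 1 mean per stage over all 12 libraries; the common biological coefficient of variation was 0.856. The 6 comparisons set the later stage over the earlier one. p-values measure the spread between libraries labelled biological replicates. A stage at 0 counts was given a bound against 3 pooled counts. No p-value was computed for a sum over members. Alternatives were DESeq2 1.42.0, limma-voom (limma 3.58.1), RLE, other filters, a replicate block, a non-robust fit, a fit to 6 libraries and leaving out each library; the overlap counts under other scalings and without Lactating replicate 3 were added after seeing the data. The fits were also run on counts simulated from edgeR's own dispersions, with no library set apart. That run cannot show how the fits handle a library such as Lactating replicate 3, and its outcome is not reported here.

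The members and the lists of genes were chosen with earlier results of these data known. Values in every library are given for members called in any test, the 5 mitotic and 5 S-phase members of highest mean CPM, the D-type members, and Mki67, Top2a, Ccnb1, Cdk1, Ccne1 and Ccne2. Of other lists, called genes are named, at most 5 per list and comparison by smallest adjusted p, with E2f1, Foxm1, Mybl2, Cdkn1a, Cdkn1b, Cdkn2c, Btg2 and Maf; some genes of these lists are not reported here. Rrm2, Tyms and other genes beyond this rule were chosen after their values were seen.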

Additional observations from a re-analysis of the deposited data

How the results depend on the processing

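The number of members called depended on the fit, as did the share of all genes called, given in parentheses. For pregnant over virgin, 2 members (1.32%) were called by edgeR, 7 (5.18%) by DESeq2, 8 (2.35%) by limma-voom, 1 (0.789%) with a replicate block, 7 (2%) in a fit to the 6 libraries compared, and 0 to 7 (0.297% to 3.26%) when 1 library was left out. For lactating over virgin, 2 (1.94%) were called by edgeR, 4 (9.26%) by DESeq2, 0 (0%) of 40 tested in the fit to the 6 libraries, and 2 to 3 (0.826% to 3.1%) with a library left out. For post-weaning over virgin, 0 (0%) were called by edgeR, 1 (0.986%) by DESeq2, and 0 to 0 (0% to 0.0745%) with a library left out. For lactating over pregnant, 6 (3.85%) were called by edgeR, 10 (11.6%) by DESeq2, 10 (5.29%) by limma-voom, and 2 to 12 (1.44% to 5.13%) with a library left out. For post-weaning over pregnant, 0 (0.718%) were called by edgeR, 3 (3.96%) by DESeq2, 2 (1.32%) by limma-voom, 18 (5.02%) in the fit to the 6 libraries, and 0 to 2 (0.00744% to 2.29%) with a library left out. For post-weaning over lactating, 2 (0.923%) were called by edgeR, 6 (7.25%) by DESeq2, 0 (0.331%) with a replicate block, 0 (0.027%) of 48 tested in the fit to the 6 libraries, and 0 to 4 (0.194% to 1.8%) with a library left out. For any difference between stages, 4 (3.35%) were called by edgeR, 13 (11.5%) by DESeq2, 13 (5.71%) by limma-voom, 1 (1.76%) with a replicate block, and 1 to 10 (1.27% to 5.76%) with a library left out. The causes were not tested.

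Among the lists, the mitotic sum differed by 2.11 on the log2 scale in pregnant over virgin libraries, by 2.87 as a mean of log2(CPM + 1), by 3.03 without the 5 mitotic members that also rise in S phase, and by 1.87 to 2.32 with a library left out. With a library left out, it differed by -2.56 to -1.67 in lactating over pregnant and by -2.01 to -1.66 in post-weaning over pregnant libraries. The S-phase sum differed by 0.89 in pregnant over virgin, by 1.43 as a mean of log2(CPM + 1), and by 0.82 to 1.00 with a library left out. In lactating over pregnant it differed by -0.47, by -1.07 as that mean, and by -0.61 to -0.30 with a library left out. In post-weaning over pregnant it differed by -1.21, by -0.999 per kilobase, by -1.48 as that mean, by -1.42 without the member of highest level, and by -1.26 to -1.16 with a library left out. Mitotic minus S-phase differed by 1.22 in pregnant over virgin, by 2.14 without the 5 members, and by 0.86 to 1.50 with a library left out. It ranged from -1.95 to -1.15 in lactating over pregnant and from -0.81 to -0.40 in post-weaning over pregnant libraries with a library left out. The counts of 35, 29 and 35 members with no overlap were of similar size under unscaled and RLE-scaled CPM, though not identical in every case. Without Lactating replicate 3, 29 became 37. No direction reversed in these alternatives.

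The libraries carry numbers 1 to 3 at each stage, which pair no animals in the labels. Correlations of same-numbered libraries' deviations from their stage means ran from -0.0683 to 0.0726, against -0.0781 to 0.110 for other pairs, so the replicate block was kept as an alternative. Precision was limited by 3 libraries per stage and by levels of a few CPM in many members.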
